A study of Mus musculus with 9 samples.

Results

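Rps27a, Rpl24 and Rpl22 are the 3 cytosolic ribosomal protein genes picked out here among the 720 genes of the 2 deposited tables. They were chosen by gene name, Rps27a and Rpl24 from the 471 genes listed for MGH-CP1 and Rpl22 from the 251 genes listed for dinaciclib. Rps27a and Rpl24 were lower in the MGH-CP1 libraries than in the vehicle libraries, 2.36-fold and 2.89-fold, and Rpl22 was 4.49-fold higher in the dinaciclib libraries than in the same vehicle libraries. The 3 genes differ in level, in the spread of their replicates and in how much of their sequence other genes carry. Each is listed in 1 table only, and its level under the other compound was not analysed here.

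The cells are EHE17, a line of mouse endothelial tumour cells with the genotype TC+/+ Cdkn2a -/-, which all groups share, vehicle included. Lines of this name come from a mouse model of epithelioid hemangioendothelioma, a vascular tumour. MGH-CP1, which blocks the palmitoylation of TEAD transcription factors, was given at 10 µM, and dinaciclib, an inhibitor of cyclin-dependent kinases that include CDK9, at 300 nM, both for 16 h, and vehicle cells received DMSO. Each group holds 3 biological replicates of this 1 line, and the p-values below cover the spread between these replicates. RNA was captured on poly-T beads and sequenced without a strand mark.

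Ribosomes are built of a small and a large subunit, and the genes of their proteins are usually transcribed at high and matched levels in growing cells. The messages of most ribosomal proteins start with a pyrimidine tract, the TOP motif, through which mTORC1 and LARP1 control their translation and stability. Ribosomal proteins that are not built into ribosomes can also bind Mdm2 and so restrain the breakdown of p53. Rps27a encodes ubiquitin fused to eS31, a protein of the small subunit, and is 1 of the genes that supply a cell with ubiquitin. Rpl24 encodes eL24, which sits at the contact between the subunits. Rpl22 encodes eL22, an RNA-binding protein on the surface of the large subunit, which has a close paralog in Rpl22l1 and is lost in some leukaemias.

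In GENCODE M21, on the GRCm38 assembly, the ENSMUSG00000020460 entry for Rps27a lies on the minus strand of chromosome 11 from 29545846 to 29548109. Rpl24, ENSMUSG00000098274, lies on the plus strand of chromosome 16 from 55966275 to 55971435, and Rpl22, ENSMUSG00000028936, on the plus strand of chromosome 4 from 152325742 to 152334071. These positions are also those of the deposited tables. The first 228 bases of each coding sequence are shown, the length that encodes ubiquitin in Rps27a, since the 3 genes differ in how far a read could also match another gene. Capitals mark bases inside a stretch of 100 bases that is found unchanged, on either strand, in an annotated transcript of another gene. Lower case marks the rest.
Rps27a: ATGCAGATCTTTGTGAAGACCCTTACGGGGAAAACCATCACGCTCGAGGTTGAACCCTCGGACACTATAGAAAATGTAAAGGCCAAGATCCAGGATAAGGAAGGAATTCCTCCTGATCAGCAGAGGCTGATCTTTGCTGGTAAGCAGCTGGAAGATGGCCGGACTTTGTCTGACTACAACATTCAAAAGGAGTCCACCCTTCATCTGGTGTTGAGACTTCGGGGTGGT
Rpl24: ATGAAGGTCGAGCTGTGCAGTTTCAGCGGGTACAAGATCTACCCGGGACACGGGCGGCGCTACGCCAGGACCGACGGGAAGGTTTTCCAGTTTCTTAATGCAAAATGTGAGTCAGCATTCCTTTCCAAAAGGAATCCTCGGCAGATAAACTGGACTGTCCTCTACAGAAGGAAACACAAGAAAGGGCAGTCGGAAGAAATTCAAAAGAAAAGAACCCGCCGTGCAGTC
Rpl22: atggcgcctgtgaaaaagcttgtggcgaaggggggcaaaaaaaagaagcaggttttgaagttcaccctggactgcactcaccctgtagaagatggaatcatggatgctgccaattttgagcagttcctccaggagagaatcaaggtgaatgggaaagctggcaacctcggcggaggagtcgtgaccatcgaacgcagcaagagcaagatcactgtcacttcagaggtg

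The whole coding sequence of Rps27a, in transcript Rps27a-201, spans 29545880 to 29547728 in 5 coding exons and holds 156 codons, 76 for ubiquitin followed by 80 for eS31. All 471 of its bases, stop codon included, are shared in that way. That of Rpl24, in Rpl24-201, spans 55966434 to 55971391 in 6 coding exons and holds 157 codons, and 471 of its 474 bases, 99.4%, are shared. That of Rpl22, in Rpl22-201, spans 152325884 to 152332424 in 4 coding exons and holds 128 codons, and 0 of its 387 bases are shared.

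Counted over all coding transcripts of a gene, untranslated parts included, 433 of the 806 distinct windows of 100 bases of Rps27a (53.7%) occur in another gene. They lie in 5 genes, led by the processed pseudogenes Gm8430 with 301 windows and Rps27a-ps2 with 275. For Rpl24 the share is 463 of 578 windows (80.1%), also in 5 genes, led by Gm28037 with 386, Gm9385 with 273 and Gm12254 with 170. For Rpl22 it is 0 of 1966 windows. With windows of 50 bases the shares are 62.4% for Rps27a, 81.7% for Rpl24 and 5.16% for Rpl22, whose shared windows lie in 4 processed pseudogenes that include Rpl22-ps1. None of the genes that share a window with a member is in either table, so their own counts were not analysed here.

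Shared sequence is common among ribosomal protein genes. Over the 79 genes of the annotated set, the median share of windows of 100 bases found in another gene is 28.0%, and 20 genes reach 50%. Rpl24 is among the 5 with the highest share and Rps27a among the 18 highest, while Rpl22 is 1 of 4 with no shared window. Among the 210 coding genes of the MGH-CP1 table the median is 0% and 17 genes reach 50%, and among the 250 of the dinaciclib table the median is 0% and 4 genes reach 50%. The plot of shared windows over the ribosomal protein genes sets the members in that range.

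**Figure D1:**
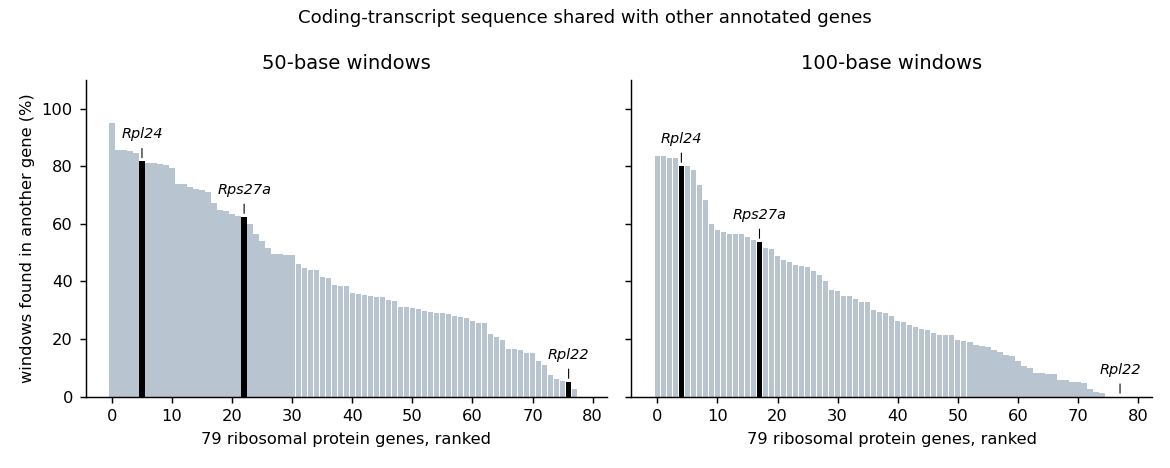
Share of distinct windows of 50 bases (left) and 100 bases (right) of each gene's coding transcripts that also occur in a transcript of another annotated gene, in percent, for 79 cytosolic ribosomal protein genes ranked from highest to lowest share. Black bars are the 3 genes described: Rpl24 at 81.7% and 80.1%, Rps27a at 62.4% and 53.7%, and Rpl22 at 5.16% and 0%.

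The exons of Rps27a and Rpl24 overlap those of Clhc1 and Gm28037 on the chromosome. Both of these are among the genes counted above, Clhc1 with 61 windows of 100 bases and Gm28037 with 386. The shares above and this overlap are thus in part the same bases, and not all shared windows are copies at another place. Clhc1, on the opposite strand, covers 160 of the 1972 exonic bases of Rps27a (8.11%), and reads from the 2 genes cannot be told apart there in libraries without a strand mark. Gm28037, an annotated processed transcript on the same strand as Rpl24, covers 484 of its 1030 exonic bases (47.0%). No gene covers an exonic base of Rpl22, whose exons sum to 2911 bases. How the authors' counting treated reads that match several genes is not given in the sources used here, so the counts of Rps27a and Rpl24 are uncertain to that extent. The part of shared reads in the differences below was not tested.

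Library totals ran from 19934012 to 24310817 counts with MGH-CP1, 2541162 to 3316779 with dinaciclib and 31852117 to 40020833 with vehicle, so the mean vehicle total was 12.2 times the mean dinaciclib total. Levels are given as the authors' normalised counts, which are counts divided by a size factor per library, and as FPKM, which also divides by gene length. For the members that length sums all annotated exons: 1972 bases for Rps27a, 1030 for Rpl24 and 2911 for Rpl22. The transcripts named above have 637, 677 and 474 bases, so FPKM compares genes with one another only roughly. Both tables list only genes picked on these same libraries: no deposited adjusted p reaches 0.05, and no deposited log2 fold change lies within 1 of 0. A call below is thus a description of listed genes and not independent evidence, and the adjusted p-values are not error rates over the genome. Every gene listed for dinaciclib also carries a tumour type entry, so a gene without such an entry may be missing there whatever its change. Of 16 endothelial markers, 1 is in the MGH-CP1 table (Vwf) and 4 are in the dinaciclib table (Kdr, Fli1, Gata2, Notch1). All 5 were called lower than in vehicle, beside 50.7% of all tested MGH-CP1 genes and 75% of all tested dinaciclib genes. The other endothelial markers are not listed, and their levels were not analysed here. Kdr, Fli1, Gata2 and Notch1 together held 2431 to 2722 normalised counts under dinaciclib and 12680 to 13116 under vehicle. Of 7 immune markers, Cd68 (called higher) and Lyz2 (called lower) are in the MGH-CP1 table, together 138 to 154 normalised counts with MGH-CP1 and 189 to 213 with vehicle. Cd74 is in the dinaciclib table but did not pass the count filter and was not tested. It had 0 to 49.1 normalised counts under dinaciclib and 0.258 to 1.62 under vehicle. None of 15 markers of fibroblasts, mural cells and epithelial cells is in a table.

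Rps27a had 2708, 2791 and 2265 normalised counts in MGH-CP1 replicates 1, 2 and 3, against 5421, 8797 and 4068 in vehicle replicates 1, 2 and 3. The MGH-CP1 libraries lie close together, the vehicle libraries are spread with replicate 2 the highest, and the groups do not overlap. The nearest libraries, vehicle 3 and MGH-CP1 2, still differ 1.46-fold. The means were 2588 ± 283 with MGH-CP1 and 6095 ± 2436 with vehicle (SD, n = 3 each).

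On the FPKM scale the level of Rps27a was 48.7, 50.3 and 40.8 with MGH-CP1 and 97.8, 159 and 73.8 with vehicle. Ranked by FPKM among the 471 listed genes, it stood at places 19 to 20 under MGH-CP1 and 4 to 13 under vehicle. Its raw counts were 2337, 1976 and 1906 with MGH-CP1 and 6146, 10714 and 5828 with vehicle, so counting error is small beside the differences between replicates.

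The fitted log2 change of Rps27a was -1.24 (SE 0.265, 95% interval -1.82 to -0.65), and edgeR's quasi-likelihood test gave an adjusted p of 0.00134. It fell in all 3 MGH-CP1 libraries relative to every vehicle library. The authors' deposited table gives a log2 fold change of -1.24 and an adjusted p of 0.00202. The vehicle coefficient of variation of Rps27a, 40.0%, was above the median of 7.12% over 15 listed genes within 3-fold of its mean, and 2 of those 15 were higher. The MGH-CP1 coefficient of variation was 10.9%, beside a median of 12.1% over the same genes. Without vehicle 2 the log2 change was -0.87 with an adjusted p of 0.00392.

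Rpl24 had 10.4, 15.5 and 5.94 normalised counts in MGH-CP1 replicates 1, 2 and 3, against 22.1, 23.8 and 44.7 in vehicle replicates 1, 2 and 3. Every MGH-CP1 library is below every vehicle library, with vehicle 3 the highest and MGH-CP1 3 the lowest of the 6. The nearest libraries, vehicle 1 and MGH-CP1 2, differ 1.42-fold. The means were 10.6 ± 4.80 with MGH-CP1 and 30.2 ± 12.6 with vehicle (SD, n = 3 each).

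These levels of Rpl24 rest on few reads. The raw counts were 9, 11 and 5 with MGH-CP1, 25 in all, and 25, 29 and 64 with vehicle, 118 in all. The FPKM were 0.359, 0.536 and 0.205 with MGH-CP1 and 0.762, 0.824 and 1.55 with vehicle. The highest of them, 1.55, is below every FPKM of Rps27a, of which the lowest is 40.8, although both genes encode proteins of the same particle. Of the windows of 100 bases of Rpl24, 80.1% are shared with other genes, and how reads there were counted is not given. The low level of Rpl24 is uncertain to that extent and does not show that its message was scarce. By FPKM, Rpl24 stood at places 222 to 312 of the 471 listed genes under MGH-CP1 and 131 to 197 under vehicle.

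The fitted log2 change of Rpl24 was -1.53 (SE 0.440, 95% interval -2.51 to -0.56), and the adjusted p from edgeR was 0.00619. It fell in all 3 MGH-CP1 libraries relative to every vehicle library. The authors' deposited table gives a log2 fold change of -1.53 and an adjusted p of 0.0192. Rpl24 passed the count filter through its vehicle libraries. Its coefficient of variation was 45.1% with MGH-CP1 and 41.7% with vehicle, beside medians of 29.8% and 23.6% over 210 listed genes within 3-fold of its mean. Without vehicle 3 the log2 change was -1.13 with an adjusted p of 0.0301.

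**Figure D2:**
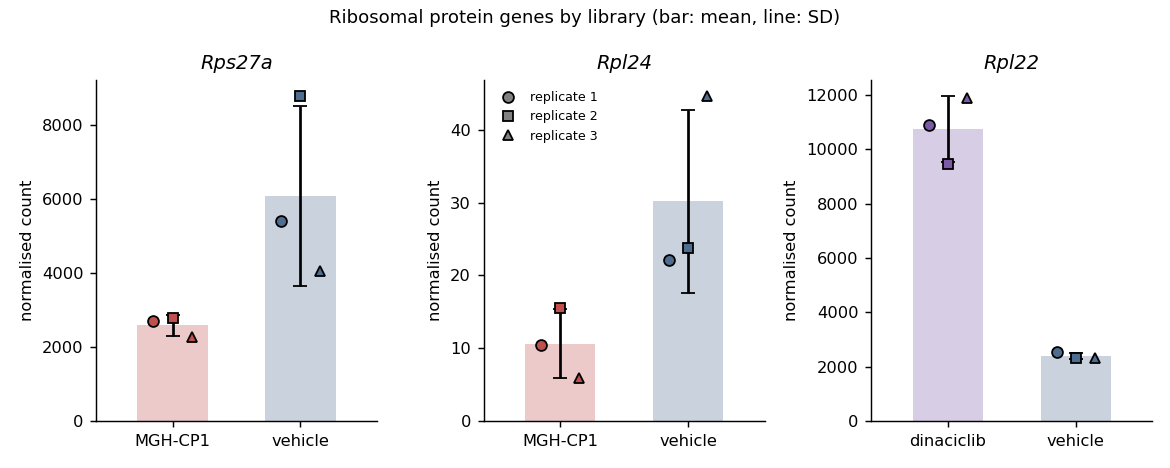
Normalised counts (linear axes from 0) of Rps27a and Rpl24 in MGH-CP1 and vehicle libraries and of Rpl22 in dinaciclib and vehicle libraries, with each replicate as a point (circle 1, square 2, triangle 3), bars at the mean and lines for the SD (n = 3 each). No group overlaps its vehicle group, the highest vehicle library is replicate 2 for Rps27a and replicate 3 for Rpl24, and the Rpl22 vehicle libraries lie between 2319 and 2524.

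Within MGH-CP1 both genes were highest in replicate 2 and lowest in replicate 3, while the vehicle libraries put them in different orders. Rpl24 had only 5 to 11 raw counts with MGH-CP1 and 25 to 64 with vehicle, so its order and the ratios below are uncertain to that extent. The ratio of Rps27a to Rpl24 normalised counts was 260, 180 and 381 in MGH-CP1 replicates 1, 2 and 3 and 246, 369 and 91.1 in vehicle replicates 1, 2 and 3. These ratios overlap between the groups, and the lowest and the second highest of the 6 are both vehicle libraries. The plot of normalised counts by library shows the vehicle orders, with Rps27a highest in replicate 2 and Rpl24 highest in replicate 3.

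The test called 2 of 2 members lower in the MGH-CP1 comparison, beside 100% of the 355 tested genes called in either direction, 49.3% called higher and 50.7% called lower. The groups did not overlap for 98.6% of the tested genes, so neither count sets the members apart from the list. Among the 180 genes called lower, with a median log2 change of -1.42, Rpl24 ranked 75 and Rps27a ranked 120 by size of change. Required to exceed a log2 change of 1, neither kept its call, with an adjusted p of 0.0995 for Rps27a and 0.0729 for Rpl24. In these libraries, RNAs that mostly lack a poly(A) tail were higher: 6 of a list of 20 are in the table, all 6 called higher with a median log2 change of 2.38. The largest, the 18S ribosomal RNA-related gene CT010467.1, had 165130 ± 65327 normalised counts with MGH-CP1 and 20588 ± 12658 with vehicle (SD, n = 3 each). The part of this in the lower values of Rps27a and Rpl24 was not tested. In these bulk libraries, fewer cells with a message and less message per cell cannot be told apart.

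Rpl22 had 10888, 9450 and 11878 normalised counts in dinaciclib replicates 1, 2 and 3, against 2524, 2327 and 2319 in vehicle replicates 1, 2 and 3. All dinaciclib libraries are far above all vehicle libraries, and the nearest of them, dinaciclib 2 and vehicle 1, differ 3.74-fold. The means were 10739 ± 1221 with dinaciclib and 2390 ± 116 with vehicle (SD, n = 3 each). The FPKM of Rpl22 were 398, 343 and 435 with dinaciclib and 83.8, 77.5 and 77.2 with vehicle. By FPKM it took place 15 of the 251 listed genes in every dinaciclib library and place 14 in every vehicle library.

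The raw counts of Rpl22 ran the other way. They were 2944, 3312 and 3626 with dinaciclib and 7770, 7708 and 8997 with vehicle, 0.404 times as many on average with dinaciclib, in libraries whose totals differed 12.2-fold. As a share of all counts in its library, Rpl22 took 0.116%, 0.0999% and 0.127% with dinaciclib and 0.0244%, 0.0226% and 0.0225% with vehicle. Scaled to a common library total, as CPM, the mean was 1141 with dinaciclib and 231 with vehicle, a ratio of 4.93. These values are relative to the other RNA of each library, and the amount of Rpl22 message per cell was not measured.

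The fitted log2 change of Rpl22 was 2.17 (SE 0.100, 95% interval 1.94 to 2.40), and the adjusted p from edgeR was 1.55e-07. It rose in all 3 dinaciclib libraries relative to every vehicle library. The authors' deposited table gives a log2 fold change of 2.17 and an adjusted p of 5.87e-89. The coefficient of variation was 11.4% with dinaciclib and 4.86% with vehicle, beside medians of 10.8% and 3.07% over 32 listed genes within 3-fold of its mean. With vehicle counts thinned to the dinaciclib depth, the log2 change was 2.15.

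The test called 1 of 1 member higher in the dinaciclib comparison, beside 100% of the 248 tested genes called in either direction, 25% called higher and 75% called lower. The groups did not overlap for 99.6% of the tested genes. Among the 62 genes called higher, with a median log2 change of 2.22, Rpl22 ranked 32, so its change was close to the middle of the listed rises. The size of the change depends on the scale set for the libraries. With TMM factors over the listed genes, the log2 change of Rpl22 was 3.81 while the median of all tested genes shifted by 1.61, and 42.2% of calls were higher in place of 25%. The plot of level and change places the 3 genes among all genes tested.

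**Figure D3:**
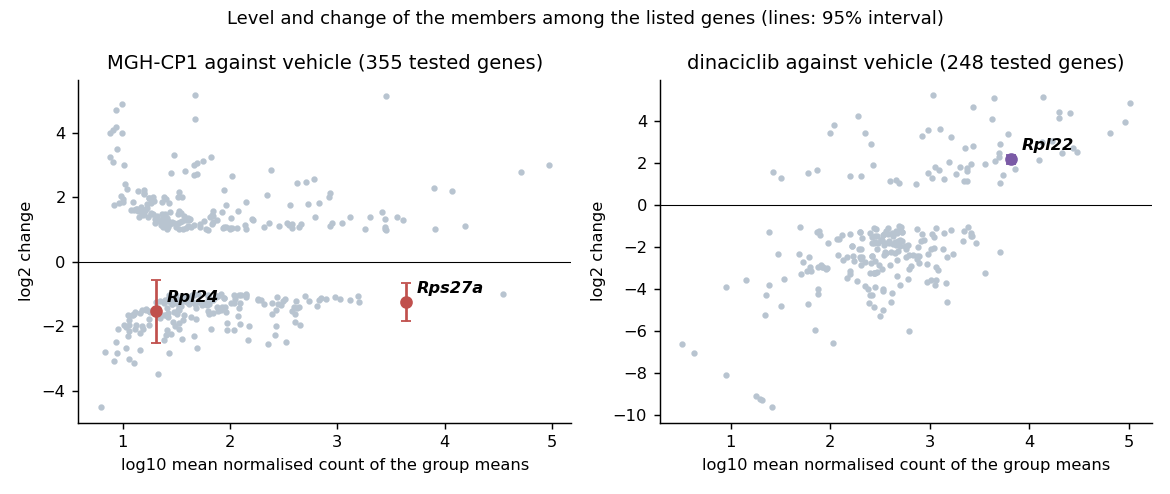
Fitted log2 change (MGH-CP1 over vehicle left, dinaciclib over vehicle right) against the log10 of the mean normalised count of the group means, for 355 and 248 tested genes. Coloured points with lines are the named genes with their 95% intervals: Rps27a at -1.24 is among the most abundant lower genes, Rpl24 at -1.53 is among the low-count genes, and Rpl22 at 2.17 lies within the higher genes.

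The genes most like each member in pattern were taken as those with the smallest root mean square difference between log2 levels centred over the 6 libraries of the comparison. Candidates were tested genes with a mean of at least 10 normalised counts and a symbol that does not start with Gm or end in Rik. Among 213 candidates, Rps27a was nearest to Serpina3i (0.203), Rtp4 (0.230), Glud-ps (0.234) and Tma7-ps (0.245), the differences being in log2 units. Rpl24 was nearest to Cyp26b1 (0.282), Rbm3-ps (0.302), Sult1a1 (0.339) and Oas1a (0.363). Among 241 candidates, Rpl22 was nearest to Ccnd3 (0.0652), Hsp90aa1 (0.0732), Ewsr1 (0.0860) and Tsc2 (0.0883), each closer to it than any candidate was to Rps27a or Rpl24. These differences also hold replicate spread, so they do not rank likeness across the 2 comparisons. The vehicle coefficient of variation was 4.86% for Rpl22, 40.0% for Rps27a and 41.7% for Rpl24. Ranked by log2 change alone, Rps27a stood between Gm12749 at -1.24 and Gm4130 at -1.23, Rpl24 between 4930524J08Rik at -1.54 and Cd40 at -1.53, and Rpl22 between Hsp90aa1 at 2.16 and Ccnd3 at 2.27.

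The other genes of the ribosome were sparse in the tables. Of 79 cytosolic ribosomal protein genes, 2 are in the MGH-CP1 table and 1 is in the dinaciclib table, which are the genes described here. Since all genes listed for dinaciclib carry a tumour type entry, absence from that list does not show an unchanged level. None of 10 ribosomal protein paralogs, Rpl22l1 among them, and no mitochondrial ribosomal protein gene is in either table, and their levels were not analysed here. Of 5 genes that encode ubiquitin fusions or polyubiquitin, Rps27a alone is listed, with MGH-CP1.

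With MGH-CP1, none of 44 translation factors and other TOP genes, 44 ribosome biogenesis genes, 15 snoRNA host genes and 12 genes of the p53 and Mdm2 response is listed beside Rps27a and Rpl24. Of 25 mTORC1 and TOP regulators, 1 is listed. This is Ddit4, which encodes an inhibitor of mTORC1 and fell to 417 ± 75.6 normalised counts with MGH-CP1, against 947 ± 14.1 with vehicle (SD, n = 3 each; log2 change -1.18, adjusted p 8.83e-05 by edgeR).

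With dinaciclib, the table holds Rpl22 beside 2 of the 44 translation genes. Eif4a2, an RNA helicase of translation initiation and a snoRNA host (1 of the 15 listed), rose by a log2 change of 1.49. Npm1, a nucleolar chaperone of ribosome assembly, had a log2 change of -1.03 by the authors' factors and of 0.61 by TMM factors, so its direction depends on the scale. Of the 44 biogenesis genes, 1 is listed: Sbds, which helps release the large subunit for translation, had 4725 ± 371 normalised counts with dinaciclib and 680 ± 28.3 with vehicle (SD, n = 3 each; log2 change 2.80).

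Of the 25 mTORC1 and TOP regulators, 7 are listed with dinaciclib, 3 higher and 4 lower, with a median log2 change of -1.59 beside -1.83 over all tested genes. Tsc2, a brake on mTORC1 and 1 of the genes nearest Rpl22 in pattern, rose by a log2 change of 2.02, and the kinase genes Akt1 and Akt2 rose by 3.05 and 1.05. Pik3ca had a log2 change of -2.27. Tsc1 had -1.59 by the authors' factors and 0.02 by TMM factors, so its direction depends on the scale. Mycn had 2 counts over the dinaciclib libraries, 0.0347 times the vehicle level with a counting interval of 0.00420 to 0.125. Of the 12 p53 and Mdm2 genes, Mdm2 rose by a log2 change of 1.52 and Ddb2 by 3.78. Fas, a death receptor, had 0 counts with dinaciclib and a mean of 8.68 normalised counts with vehicle. Its counting interval was 0 to 0.459 times the vehicle level by the authors' factors. With TMM factors Fas was not called (adjusted p 0.0630 by edgeR), so its call depends on the scale. None of the 20 RNAs mostly without a poly(A) tail is in the dinaciclib table, which holds only genes with a tumour type entry, so their change is not known here.

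Copies of other ribosomal protein genes are more frequent in the MGH-CP1 table than the genes themselves. Of its 118 pseudogenes, 40 (33.9%) share a window of 50 bases with a ribosomal protein gene, 28 such genes in all, and none of them is a copy of Rps27a or Rpl24. By the authors' deposited table, 18 of the 40 were higher and 22 lower with MGH-CP1, beside 270 higher and 201 lower of all 471 listed genes. Of 33 that passed the count filter, 16 were called higher and 17 lower, with a median log2 change of -1.0, beside 49.3% called higher and a median of -1.01 over all 355 tested genes. Among tested genes, though not in the authors' split, the share of copies that were higher is thus close to that of all genes. Over all 99 tested pseudogenes, copies included, 37 were called higher and 62 lower, with a median log2 change of -1.22. Of 8 ribosomal protein genes with several listed copies, the copies of 5 moved in 1 direction and those of 3 in both. The 3 copies of Rpl30 were higher by log2 fold changes of 2.14 to 3.33 and the 3 of Rps28 had -2.68 to -1.85 in the authors' deposited table.

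By name or description alone, 13 of these pseudogenes would be counted, with 6 called higher and 6 lower of 12 tested and a median log2 change of 0.12. The most abundant was Rpl34-ps1, with 828 ± 87.8 normalised counts with MGH-CP1 and 237 ± 35.3 with vehicle (SD, n = 3 each). The next, Rpl38-ps2, had 249.5 ± 61.0 with MGH-CP1 and 582 ± 101 with vehicle, and Rps19-ps6 had 171 ± 10.7 with MGH-CP1 and 429 ± 51.6 with vehicle (SD, n = 3 each). Among the others, Rps2-ps6, Rps3a3, AC123956.1 (a copy of Rplp0) and Rpl30-ps1 had log2 changes of 1.85, 1.47, 3.26 and 3.13, and Rps12-ps4 had -1.48. Each of these copies shares sequence with a ribosomal protein gene that is not in the table, so its counts may hold reads that match that gene as well, which was not tested.

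**Figure D4:**
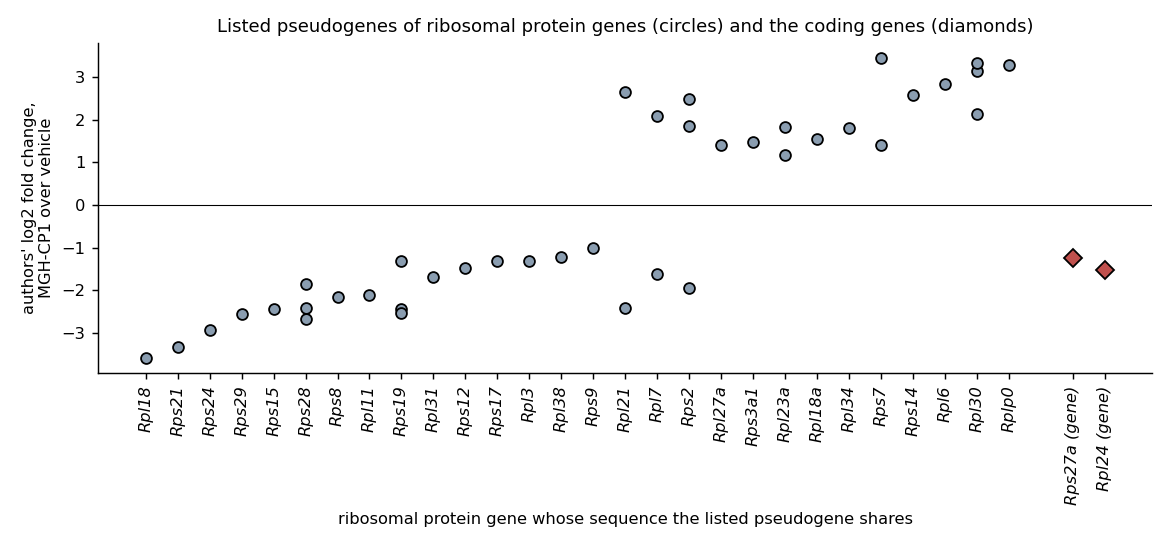
Log2 fold change of MGH-CP1 over vehicle in the authors' deposited table for 40 listed pseudogenes (circles), placed by the ribosomal protein gene whose sequence they share, and for the coding genes Rps27a and Rpl24 (diamonds, far right). The circles stand on both sides of 0, with 18 above and 22 below, while the diamonds are at -1.24 and -1.53.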

How the data were processed

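Per the labels' protocols, RNA was captured on poly-T beads and copied from random hexamers, with no strand mark. The authors used HISAT2 2.0.5 and featureCounts 1.5.0-p3, as well as fastp and DESeq2 1.20.0, as the submitters' processing notes list them. For genome build, annotation, read length and reads that match several genes, the answer is not given in the sources used here. All coordinates were read as GRCm38, since all 471 and all 251 identifiers are in GENCODE M21, 464 (98.5%) and 242 (96.4%) with the same start and end.

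Per the file headers, each table holds the authors' raw counts per library, their normalised signal (count divided by a size factor), FPKM, gene length, and their log2 fold change, p-value and adjusted p-value. In the dinaciclib table, every gene carries a tumour type entry. Library totals were recovered from count, FPKM and length. Replicate pairs differed by more than sampling noise, with a chi-square over degrees of freedom of 5.53 to 89.5.

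Counts were tested with edgeR 4.0.16 in R 4.3.3 (quasi-likelihood test, two-sided, no covariate, the 6 libraries of a table, the authors' size factors, filterByExpr with a minimum count of 10, Benjamini-Hochberg adjustment over all tested genes, threshold 0.05). All 3 members passed the filter, as did 355 of 471 and 248 of 251 genes, and the test was checked on simulated counts. Intervals of low counts cover counting error only.

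Windows of 50 and 100 bases, matched on either strand, and coding sequences were read from GENCODE M21 transcripts. The members, the 9 gene lists and the markers were chosen with earlier results of these data known. Named are the members, list genes in a table (up to 8 a list by smallest p), up to 8 ribosomal protein pseudogenes by highest mean, the 4 genes nearest each member in pattern (log2 of normalised count plus 1, mean of at least 10) and its neighbours by log2 change. Values of 1 listed gene are not reported here. Rpl30 and Rps28, whose copies are described, were chosen after their values were seen. Alternatives were TMM factors, total counts, DESeq2 1.42.0, other count filters and thresholds, a minimum fold, a replicate block, coding genes alone, thinned vehicle counts and each replicate left out. Figures were drawn with matplotlib 3.10.9.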

Additional observations from a re-analysis of the deposited data

How the results depend on the processing

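Rps27a and Rpl24 kept direction and call under 8 of 9 alternatives each, and Rpl22 under 10 of 10. The exception was a minimum absolute log2 change of 1, where Rps27a (-1.24, adjusted p 0.0995) and Rpl24 (-1.53, adjusted p 0.0729) lost their calls and 170 of 355 genes were called. With protein-coding genes alone, 187 were tested and 187 called, since fewer genes entered. All 355 tested MGH-CP1 genes stayed called with TMM factors, with total counts and with a replicate block. A kept call of Rps27a or Rpl24 thus does not set it apart from genes listed for their change. For dinaciclib, 251 of 251 genes were called with DESeq2. With 1 replicate left out, the log2 change ran from -1.46 to -0.87 for Rps27a and from -1.88 to -1.13 for Rpl24. That of Rpl22 ran from 2.09 to 2.25, and each member was still called. In those fits 365 to 385 MGH-CP1 genes were called of 368 to 393 tested, and 240 to 249 dinaciclib genes of 243 to 249 tested. With TMM factors the changes were -1.10, -1.42 and 3.81, and 166 of 247 dinaciclib genes were called. The median of all tested genes then shifted by 0.14 and 1.61, and with total counts by -0.01 and 0.13. Fas lost its call with TMM factors (adjusted p 0.0630).

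With a replicate block the log2 changes were -1.17 for Rps27a (adjusted p 0.000209), -1.48 for Rpl24 (adjusted p 0.0101) and 2.16 for Rpl22. Of the tested genes, 355 of 355 were then called with MGH-CP1 and 240 of 248 with dinaciclib. The replicate numbers do not pair the samples: deviations of same-numbered libraries correlated at 0.03, -0.11 and 0.03 for MGH-CP1 and at 0.02, -0.03 and -0.14 for dinaciclib, and not every library correlated best with its own number. Depth limits Rpl24 most, with 25 counts over the MGH-CP1 libraries.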
